A study of Mus musculus with 8 samples.

Results

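The genes described here are 7 genes for transcription factors and cofactors of blood and lymphoid cells that lie on mouse chromosome 4: Tal1, Pax5, Runx3, Runx1t1, Bach2, Tox and Prdm16. They were chosen by name, with earlier results of these data known, from the 1301 protein-coding genes of the chromosome with a measured replication time, and all 7 were measured. Replication timing was profiled by Repli-seq, in which cells take up the nucleotide analog BrdU into DNA as they copy it. The method separates cells in the early part of S phase from cells in the late part and sequences the BrdU-bearing DNA of each. The 8 libraries, 1 early and 1 late for each profile, gave 2 profiles of control mouse embryonic stem cells of the line JM8N4 and 2 profiles of mouse embryonic stem cells labelled as having a Klf4 enhancer deletion. The labels give neither the coordinates of that deletion nor whether its profiles come from 1 clone or from several. They also do not say whether replicates were separate cultures. The p-values therefore set a genotype difference only against the spread between these profiles, which may be technical.

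Each score sets early against late signal at a position, and positions lie every 5 kb on build mm10. Scores have no stated unit, and a pair of scores for a genotype is given with replicate number 1 first. Higher scores were read as earlier replication, because protein-coding genes were denser where the mean score lay above 0, at 15.1 per Mb, than where it lay below 0, at 2.92 per Mb. The score of a gene is the mean over the positions that overlap it, from 4 positions for Tal1 to 71 for Bach2. A gene is called early where its score lies above 0 and late where it lies below 0. The table holds no read counts, so the depth behind a score is unknown, and it holds no expression values, so the cell type in the labels could not be checked against marker genes. A score averages over all sorted cells of a fraction.

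DNA is copied in large domains, each with a characteristic time in S phase. Gene-rich, open chromatin is usually copied early, and late domains are usually gene-poor and often contact the nuclear lamina. Many genes of specialised lineages change their replication time as cells differentiate, so the state in stem cells is a starting point before blood is formed. The 7 genes act at different levels of the blood system. Tal1 is a basic helix-loop-helix factor needed to form blood stem cells and red cells, and Prdm16 is a zinc finger factor that maintains blood stem cells and also directs brown fat. Pax5 commits cells to the B lineage. Bach2 is a repressor that restrains B and T cell differentiation, Runx3 directs cytotoxic T cells, and Tox is an HMG-box factor of T cell development and exhaustion. Runx1t1 is a corepressor known as a fusion partner of RUNX1 in acute myeloid leukaemia.

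Of the 7 genes, 5 were early and 2 were late in every profile, and none changed state between profiles or genotypes. Among all 1301 measured genes 79.7% were early and 16.6% were late in every profile. The early genes were Runx3, Pax5, Prdm16, Tal1 and Bach2, and the late genes were Runx1t1 and Tox. The median control score of the 7 genes was 1.47, and that of all measured genes was 2.49. Runx3 was the only one of the 7 above that median. In order of the control mean, Runx3 stood at percentile 96.8 of all measured genes, Pax5 at 34.0, Prdm16 at 30.4, Tal1 at 29.5, Bach2 at 27.3, Runx1t1 at 13.8 and Tox at 8.84.

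**Figure D1:**
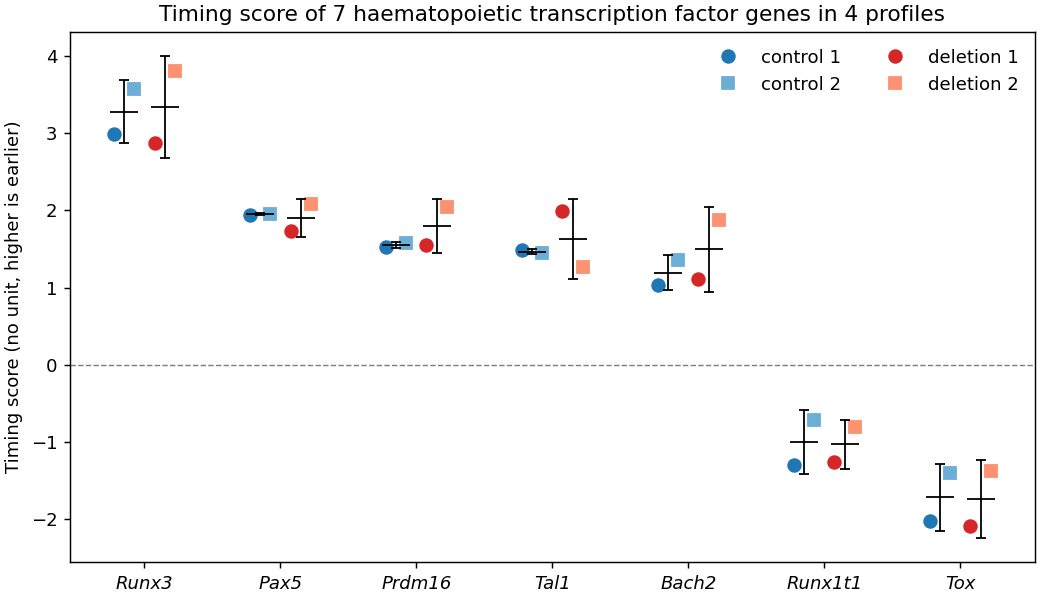
Scores of the 7 genes (vertical axis, without a unit, earlier replication upward) in each profile, with circles for replicate number 1, squares for number 2, and black bars for the group mean and SD (n = 2 each). Runx3 sits highest, between 2.87 and 3.80, the next 4 genes lie between 1.03 and 2.08, and Runx1t1 and Tox lie below 0 in every profile.

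The order of the levels was firm at its ends and loose in the middle. Runx3 scored above Pax5 in all 4 profiles, with gaps from 1.05 to 1.72. Bach2, the lowest of the early genes, scored above Runx1t1 in all 4 profiles, with gaps from 2.07 to 2.69, and Runx1t1 above Tox, with gaps from 0.57 to 0.84. The ranges over the 4 profiles did not overlap in these 3 pairs. Pax5 scored above Prdm16 in all 4 profiles, by as little as 0.04, and their ranges overlapped. Prdm16 and Tal1 were in that order in 3 of 4 profiles, as were Tal1 and Bach2. The order of Prdm16 and Tal1, and of Tal1 and Bach2, was therefore not the same in every profile. In these pairs too the ranges over the 4 profiles overlapped. Within the control pair the ranges of these neighbours, and of Pax5 and Prdm16, did not overlap. Prdm16 scored above Bach2 in all 4 profiles, with ranges that overlapped.

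Runx3 lies at chr4:135120645-135177990 (mm10). Its control profiles gave scores of 2.99 and 3.57, and its deletion profiles gave 2.87 and 3.80. Both number 2 profiles were the higher ones, and the genotypes overlapped. The gene lay inside an early domain of 10925 kb with 206 protein-coding genes, 3516 kb from the nearest point where the control mean crossed 0. The score hardly varied inside the gene, from 3.25 to 3.31 in the control mean. Syf2 and Clic4, which flank it at 183 and 36.0 kb, scored 2.90 ± 0.18 and 2.95 ± 0.04 in control cells (SD, n = 2 each). Runx genes are transcribed from a distal and a proximal promoter, and RefSeq (GRCm38.p6, the same build as mm10) gives Runx3 a start of transcription for each. They are shown because Runx3 had the highest control mean of the 7 genes. Each run covers 250 bases before and 50 bases after the start, on the plus strand, at chr4:135120395-135120694 and chr4:135152295-135152594, with CG dinucleotides in capitals.
Runx3 distal: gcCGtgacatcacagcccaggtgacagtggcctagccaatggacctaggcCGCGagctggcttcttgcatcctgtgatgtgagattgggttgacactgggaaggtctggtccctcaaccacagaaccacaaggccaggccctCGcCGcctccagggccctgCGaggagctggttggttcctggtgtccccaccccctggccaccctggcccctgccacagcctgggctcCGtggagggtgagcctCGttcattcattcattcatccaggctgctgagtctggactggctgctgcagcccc
Runx3 proximal: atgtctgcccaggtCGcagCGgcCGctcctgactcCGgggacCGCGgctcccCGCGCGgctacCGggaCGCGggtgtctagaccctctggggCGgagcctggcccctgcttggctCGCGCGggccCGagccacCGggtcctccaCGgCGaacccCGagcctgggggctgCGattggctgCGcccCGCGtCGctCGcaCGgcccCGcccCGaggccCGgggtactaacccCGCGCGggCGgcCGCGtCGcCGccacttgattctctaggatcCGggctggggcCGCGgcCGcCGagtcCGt
The distal window held 8 CG dinucleotides and the proximal window 45, where the median of the 2053 RefSeq promoter windows of the chromosome was 8, with quartiles of 3 and 22. The distal start had control scores of 3.06 and 3.56 and deletion scores of 2.92 and 4.03. The proximal start had control scores of 2.98 and 3.58 and deletion scores of 2.84 and 3.80. In each profile the scores at both starts were closer to each other than the replicates of a genotype were.

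Pax5 and Prdm16 each lay in a local dip of an early domain. Pax5 lies at chr4:44524748-44710694, with its start of transcription at the higher end. Its control profiles gave scores of 1.94 and 1.96, and its deletion profiles gave 1.73 and 2.08. The control profiles lay within the range of the deletion profiles. The 250 kb on its lower and higher side scored 2.48 and 2.68 in the control mean and 2.67 and 2.79 in the deletion mean, so that the gene lay below the lower-scoring side by 0.53 in control and 0.76 in deletion cells. Its early domain was 6935 kb long with 132 genes, and the nearest change of sign was 2184 kb away. Inside Pax5 the control mean rose from a low of 1.53, 40 kb from the first position of the gene, to 2.64 at the start of transcription. The promoter end was the earliest place of the gene in every profile, with control scores of 2.75 and 2.54 and deletion scores of 2.35 and 2.58. Its neighbours Melk, a cell cycle kinase gene, and Zcchc7 scored 2.73 ± 0.15 and 2.66 ± 0.18 in control cells (SD, n = 2 each).

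Prdm16 lies at chr4:154316122-154637360, also with its start at the higher end. Its control profiles gave scores of 1.52 and 1.58, and its deletion profiles gave 1.55 and 2.04. Control 1, control 2 and deletion 1 were close together and deletion 2 stood higher. The 250 kb on its lower and higher side scored 2.31 and 2.56 in the control mean, and 2.62 and 2.81 in the deletion mean. The low point of the control mean, 1.25, lay 135 kb from the first position of the gene, and the promoter end reached 2.21. Prdm16 belonged to an early domain 2585 kb long with 69 genes, and the nearest change of sign was 541 kb away on its lower side. On the higher side the domain ran in every profile to the end of the measured positions, so its length and gene count are cut off there. Arhgef16, a guanine nucleotide exchange factor gene, and Actrt2, an actin-related gene, flank it and scored 1.89 ± 0.08 and 2.37 ± 0.08 in control cells (SD, n = 2 each). Pax5 and Prdm16 were below both 250 kb sides in all 4 profiles, which was true of 8.99% of all measured genes, of 13.3% of the genes over 100 kb, and of 6.98% (6 of 86) of those over 100 kb that were early in every profile. This property was looked at after the profiles were seen.

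**Figure D2:**
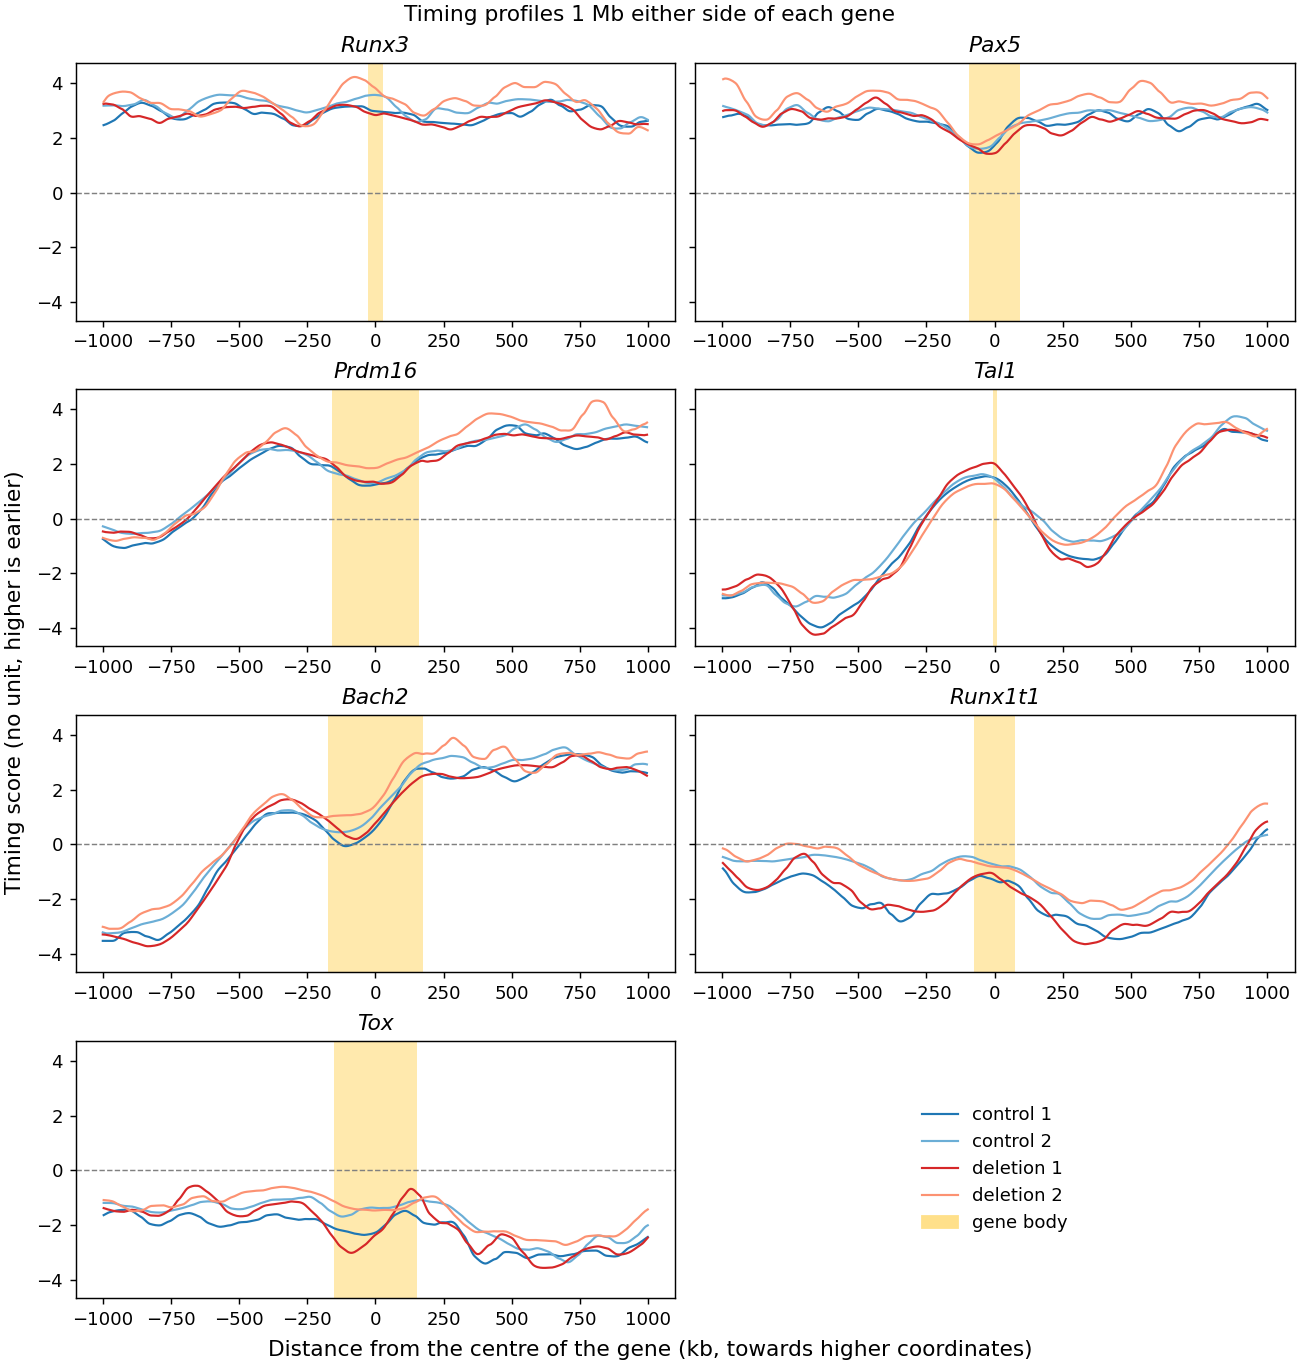
Timing score (vertical axis, no unit) of the 4 profiles against the distance from the centre of each gene in kb (horizontal axis), with the gene body in yellow and a dashed line at 0. Pax5 and Prdm16 lie in dips of early domains, Tal1 on the peak of a narrow early domain, Bach2 on a rise that reaches 2.87 at its higher end in the control mean, and Runx1t1 and Tox in late domains.

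Tal1 lay close to the top of the narrowest domain of the set. The gene lies at chr4:115056426-115071755. The scores were 1.49 and 1.45 in the control profiles, against 1.99 and 1.26 in the deletion profiles. The deletion profiles lay on either side of both controls, with deletion 1 the highest and deletion 2 the lowest. The early domain was 410 kb long in the control mean, held 7 protein-coding genes and peaked at 1.58. It was between 360 and 450 kb long in single profiles. Tal1 lay 138 kb from the nearest change of sign and scored above the 250 kb on both sides in all 4 profiles, as 10.3% of all measured genes did. Its lower side averaged 1.15 and its higher side 0.11 in control cells. Stil, a centriole gene, and Pdzk1ip1, which flank it at 13.2 and 17.0 kb, scored 1.57 ± 0.05 and 1.28 ± 0.09 in control cells (SD, n = 2 each). In both of them deletion 1 was the highest and deletion 2 the lowest of the 4 profiles, as in Tal1.

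In the control mean, Bach2 spanned the widest range of timing of the 7 genes. It lies at chr4:32238413-32586109. Its control profiles gave scores of 1.03 and 1.36, and its deletion profiles gave 1.11 and 1.88. Deletion 2 was the highest and control 1 the lowest, and the genotypes overlapped. Within the gene the control mean ran from 0.20, at 65 kb from its first position, to 2.87 at its last position, a range of 2.67. The range in Pax5, which was the next widest in the control mean, was 1.11. In deletion 1 Tox spanned slightly more, from -3.02 to -0.68, than Bach2, from 0.20 to 2.51. From the first to the last position of Bach2 the score changed by 2.35 and 2.46 in the control profiles and by 1.63 and 2.30 in the deletion profiles. In control 1 alone a stretch of 45 kb inside the gene dropped just below 0, to -0.06, while the other 3 profiles stayed above 0 throughout. The gene lay 338 kb from the nearest change of sign of the control mean. Map3k7, a signalling kinase gene on its lower side, scored 0.95 ± 0.03 in control cells, and the connexin gene Gja10 on its higher side scored 2.87 ± 0.20 (SD, n = 2 each). The RefSeq promoter entry used for Bach2 has its start of transcription on the plus strand, inside the gene and not at its lower end. A plus-strand gene span begins at the lower end, so the entry is not the start of the full span. At that lower end the control profiles scored 0.42 and 0.51. The window at chr4:32417185-32417484 is shown as that of the lowest-scoring gene with an entry, with CG dinucleotides in capitals.
Bach2: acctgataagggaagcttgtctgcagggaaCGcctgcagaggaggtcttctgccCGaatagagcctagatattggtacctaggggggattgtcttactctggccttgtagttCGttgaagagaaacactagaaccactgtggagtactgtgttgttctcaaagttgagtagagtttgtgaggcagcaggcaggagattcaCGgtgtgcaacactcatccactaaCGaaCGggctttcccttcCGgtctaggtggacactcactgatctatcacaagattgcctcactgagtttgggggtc
This window held 7 CG dinucleotides. Its control scores were 0.66 and 1.19 and its deletion scores 0.84 and 1.49, in the lower part of the rise. The windows of Pax5, Prdm16 and Tal1 held 23, 24, and 11 and 22 CG dinucleotides, the last gene with 2 starts, and no window for Runx1t1 or Tox was used here.

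Runx1t1 and Tox were late throughout. Runx1t1 lies at chr4:13742628-13895056. Its control profiles gave scores of -1.29 and -0.71, and its deletion profiles gave -1.25 and -0.81. The number 2 profiles were earlier in both genotypes, and each deletion profile lay within 0.10 of the control of the same number. Its late domain was 2945 kb long in the control mean and held 10 protein-coding genes. Within that domain the gene was a local high, above the 250 kb on both sides in all 4 profiles (12.6% of all genes over 100 kb were), with -1.34 and -2.09 for the sides in the control mean. Its nearest neighbours, Triqk and the anion transporter gene Slc26a7, lie 761 and 607 kb away and scored -1.16 ± 0.78 and -1.94 ± 0.54 in control cells (SD, n = 2 each). In deletion 2 alone the score rose just above 0 near 13100000, 643 kb below the gene, so that the domain was 1570 kb long with 3 genes in that profile. It was between 2900 and 2975 kb long with 9 or 10 genes in the other 3 profiles. The highest score in the 1000 kb around that place was 0.03 in deletion 2, and -0.43, -0.27 and -0.34 in control 1, control 2 and deletion 1. Runx1t1 itself stayed late in that profile.

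Tox lies at chr4:6686353-6991557. Control profiles scored -2.02 and -1.40, and deletion profiles scored -2.09 and -1.38. Profiles again went by number, and the genotypes overlapped. The gene lay 1438 kb inside a late domain of 4375 kb with 11 genes. Nsmaf, on its lower side, scored -1.46 ± 0.38 in control cells, and the carbonic anhydrase family gene Car8, 1150 kb away on its higher side, -1.17 ± 0.01 (SD, n = 2 each). Deletion 1 varied most inside Tox, from -3.02 to -0.68, while control 1 ran from -2.37 to -1.48, control 2 from -1.69 to -1.10 and deletion 2 from -1.47 to -1.14. This excursion was not shared by deletion 2, and no position in Tox had both deletion profiles on 1 side of both controls.

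The set is rich in long genes. Of the 7 genes, 5 are longer than 100 kb (Pax5, Runx1t1, Bach2, Tox and Prdm16), against 11.0% of all measured genes. Among the 143 measured genes over 100 kb, 60.1% were early in every profile and the median control score was 1.30. Among those up to 100 kb, 82.1% were early in every profile and the median was 2.54. Of the 5 long genes 3 were early in every profile. Tal1, at 15.3 kb, was the shortest of the set and scored below the median of genes up to 100 kb.

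**Figure D3:**
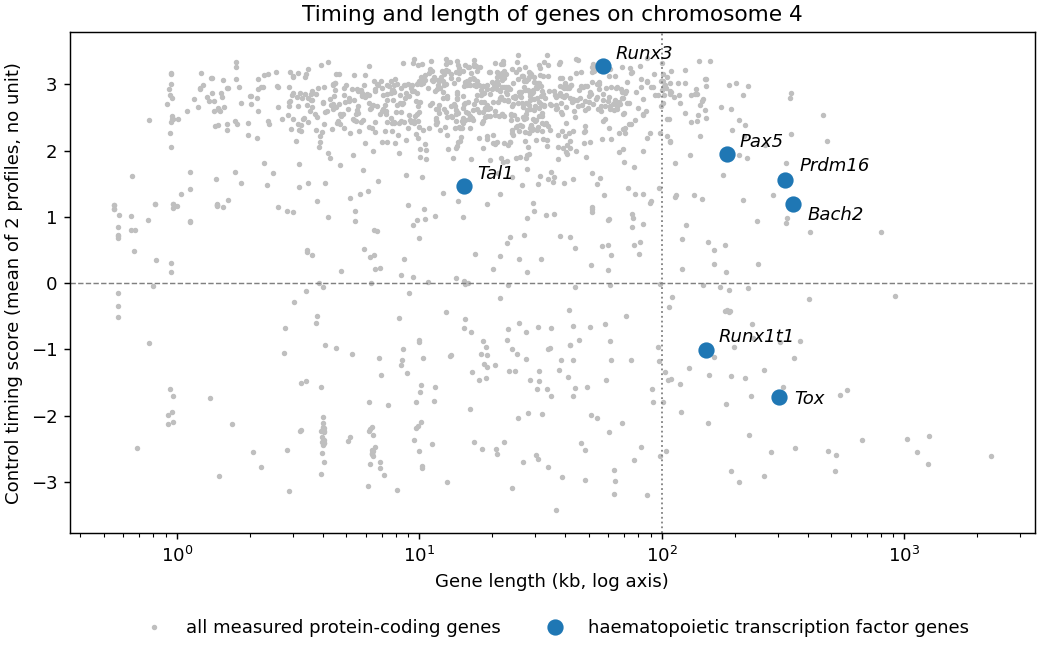
Control timing score (vertical axis, mean of 2 profiles, no unit) against gene length in kb (horizontal log axis) for all 1301 measured protein-coding genes in grey and the 7 genes in blue, with a dotted line at 100 kb. Long genes spread over early and late scores, and Pax5, Prdm16, Bach2, Runx1t1 and Tox lie among them.

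Other genes of the blood system on the chromosome were described from 2 lists. Of 10 further transcription factor genes with roles in blood cells, 8 were early and 1 was late in every profile, a share of early genes near the 79.7% of all measured genes, and the median control score was 2.55. The highest were Spen, a Notch pathway corepressor, at 2.87 ± 0.01, and Zbtb17, which encodes Miz-1, at 2.76 ± 0.05 (SD, n = 2 each). The lowest were the nuclear factor I gene Nfia, at -1.68 ± 0.38, and the zinc finger gene Hivep3, at -0.24 ± 0.18 (SD, n = 2 each). Hivep3 was the gene near the middle of the scale, with control scores of -0.37 and -0.11 and deletion scores of -0.02 and 0.16. The list also holds Klf4, named in the deletion label, with control scores of 2.24 and 2.73 and deletion scores of 1.77 and 2.89. All 23 genes of a list of blood and lymphoid effector genes, among them receptors, kinases and complement genes, were early in every profile, with a median control score of 2.76. They ranged from Lyn, a kinase of B and myeloid cells, at 1.30 ± 0.29, and the angiopoietin receptor gene Tek, at 1.33 ± 0.25, up to Ermap, at 3.17 ± 0.35, and the cannabinoid receptor gene Cnr2, at 3.19 ± 0.15 (SD, n = 2 each). By limma none of the 10 and none of the 23 genes passed the test between genotypes in either direction (0 at an unadjusted p under 0.05), and their median differences were 0.01 and 0.08.

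The genotype comparison asks whether loss of the Klf4 enhancer goes with another timing of these genes. No timing difference of the 7 genes passed the test. By limma with Benjamini-Hochberg adjustment over all measured genes, 0 of the 7 passed in either direction, as did 0% of the 1301 genes. An unadjusted p under 0.05 was found for 0 of the 7 and for 1.31% of all. The differences, deletion minus control, were 0.30 for Bach2 (SE 0.35), 0.24 for Prdm16 (SE 0.34), 0.16 for Tal1 (SE 0.35), 0.06 for Runx3 (SE 0.36), -0.02 for Tox (SE 0.36), -0.03 for Runx1t1 (SE 0.35) and -0.05 for Pax5 (SE 0.34), with a limma adjusted p of 0.9995 for each. The SEs rest on a spread moderated over all genes. The 95% intervals reached from -0.42 to 1.02 for Bach2 and from -0.75 to 0.71 for Tox, so that changes of that size could not be told from none. The exact two-sided permutation p was 0.667 for Bach2 and Prdm16 and 1.0 for the other 5 genes, where 2 profiles against 2 cannot give less than 0.33.

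**Figure D4:**
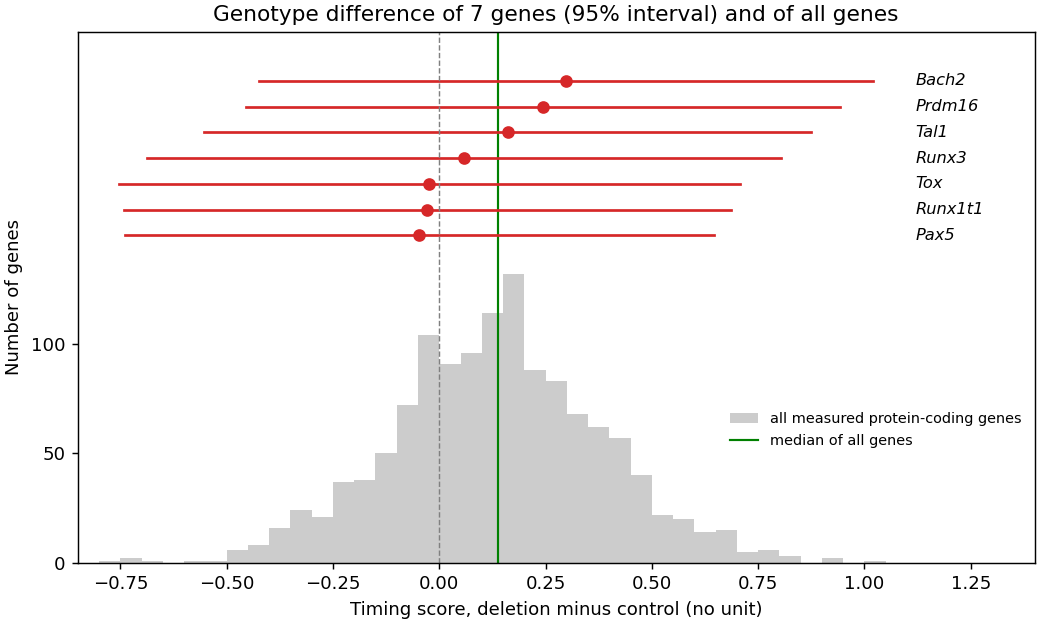
Timing score in deletion minus control profiles (horizontal axis, no unit) as points with 95% intervals from limma for the 7 genes, above a histogram of all 1301 measured genes (vertical axis, number of genes) with their median as a green line. All 7 intervals include 0, and the points lie between -0.05 and 0.30.

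In none of the 7 genes did both deletion profiles lie on 1 side of both controls. Over all measured genes both lay above in 15.1% and both below in 6.53%. The median difference of the 7 genes was 0.06 and that of all measured genes 0.14. Over positions the median difference was 0.16, and over the chromosome the median score was -0.79 and -0.37 in the control profiles against -0.73 and -0.21 in the deletion profiles. Deletion 2 alone lay above both controls. The median difference of all genes was -0.02 without control replicate 1, 0.28 without control replicate 2, 0.32 without deletion replicate 1 and -0.06 without deletion replicate 2, so its size and sign rested on single profiles. Relative to the shift of 0.16 Bach2 differed by 0.14, Prdm16 by 0.09 and Tal1 by less than 0.01, and Runx3 by -0.10, Tox by -0.18, Runx1t1 by -0.18 and Pax5 by -0.20. The sign as deposited was positive in 4 genes and negative in 3, but with profiles centred on their medians Runx3 was negative too, and with quantile normalization so were both Runx3 and Tal1.

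Profiles with the same replicate number were also compared with each other. Bach2 was higher in deletion cells within both numbers, by 0.07 in number 1 and 0.52 in number 2, and so was Prdm16, by 0.03 and 0.46. Over all measured genes 43.7% were higher within both numbers. The other 5 genes differed in opposite directions within the numbers, as did 42% of all measured genes. Tal1 showed the widest contrast, with 0.50 in number 1 and -0.18 in number 2. Pax5 differed by -0.22 and 0.12, Runx3 by -0.12 and 0.24, Runx1t1 by 0.04 and -0.10, and Tox by -0.07 and 0.03. Without deletion replicate 2 the difference of Bach2 was -0.09 and that of Prdm16 -0.0023, and without deletion replicate 1 they were 0.69 and 0.49. Their positive difference therefore rested on deletion replicate 2.

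Single positions inside the genes were tested as well. By limma per position, 0 of the 285 positions of the 7 genes passed, none had an unadjusted p under 0.05 (0 positions), and over the chromosome 0% of the 30659 positions passed. Both deletion profiles lay above both controls at 38 of the 285 positions, or 13.3%, and below them at 9, or 3.16%. Over the whole chromosome these shares were 16% and 5.86%. The positions were grouped, as scores of neighbouring positions are alike. In Bach2 they formed a single run of 55 kb at its lower end, where the control profiles averaged 0.18 and 0.47 and the deletion profiles 0.67 and 1.04. In Prdm16 they made up 19 of 65 positions, in 2 runs on the side of lower coordinates, where the control profiles averaged 1.48 and 1.47 and the deletion profiles 1.58 and 1.94. Pax5 held a run of 40 kb above, at its lower end, and a run of 45 kb below, near its promoter, where the control profiles averaged 2.56 and 2.41 and the deletion profiles 2.07 and 2.39. Tal1, Runx3, Runx1t1 and Tox held no such position.

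The genes whose 4 scores were most like those of each member, among genes over 5 Mb away, were found by the smallest mean absolute difference over the 4 profiles. They were Fam219a for Runx3, at 0.05, Csmd2 for Tox, at 0.06, Pgm1 for Bach2, at 0.07, Ncbp1 for Prdm16, at 0.08, the zinc finger gene Zfp37 for Pax5, at 0.09, the ribosomal protein gene Rps20 for Tal1, at 0.09, and Cyp4a12a for Runx1t1, at 0.10. Rps20 shared with Tal1 the high score in deletion 1 (1.86) and the low score in deletion 2 (1.41). With 4 profiles such likeness is a description of level and spread.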

How the data were processed

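Repli-seq libraries were made, per the labels' protocols, after a BrdU pulse of 2 h from 40000 cells per S-phase fraction. The deposited values are timing scores on chromosome 4, 1 per 5 kb, which the authors scaled to a common interquartile range per the deposited table's name. The interquartile range was 4.60 in each column. Bowtie2, SAMtools, bedtools and the build mm10 appear in the submitters' processing notes. The log base and the smoothing are not given in the sources used here. Of 31301 positions, 30659 had all 4 scores and were used, and each was read as the start of its bin. Gene spans came from RefSeq (GRCm38.p6), which lists 1328 protein-coding genes on the chromosome. Strands and promoter windows came from RefSeq promoters, with entries for 5 of the 7 genes.

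Genotypes were compared with limma 3.58.1 (lmFit, eBayes) in R 4.3.3, two-sided, threshold 0.05 after Benjamini-Hochberg adjustment, per gene and per position, and by exact permutation with scipy 1.17.1. The test was tested on simulated data. Domains are runs of 1 sign of the control mean. Named genes were the 7, their nearest neighbour on each side and the most alike gene over 5 Mb away. Of each other list the 2 highest and 2 lowest were named, and Klf4 because the deletion label names it. Members and lists were chosen with earlier results of these data known. Of promoters, those of the highest and lowest gene were to be printed. The lowest, Tox, had no entry, so the lowest with one was used, and this choice and the comparison with 250 kb sides were made after seeing the data. Alternatives covered scaling, the replicate block, single profiles left out, the part of the gene averaged, the bin position, limma's options and the early boundary.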

Additional observations from a re-analysis of the deposited data

How the results depend on the processing

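None of the 7 genes was called under any alternative that kept all 4 profiles. With 100 kb added on each side and with positions as bin ends, 5 were early in every profile. At the start of transcription 5 were early too. The middle position stood in for Runx1t1 and Tox, and in Bach2 the start used lies inside the gene. The count was also 5 with any 1 profile left out, which was fixed in advance, as each gene kept its state in all 4. With each profile's own median as the boundary it was 5 as well. These medians lay below 0, so the early genes could not fail there. Limma's trend and robust options also called 0 of 1301 genes. Without deletion replicate 1, 4 of all 1301 genes were called, none of them among the 7. Leaving out single profiles gave between 0 and 4 called genes.

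Signs of small differences changed with scaling and with single profiles, and the cause was not tested. Runx3 was at -0.0513 after median centring, with or without the replicate block, and at -0.16 after quantile normalization, and Tal1 at -0.0417 after quantile normalization. The median difference of all genes was 0.03 and -0.03 under these scalings. Runx1t1 was at 0.0653 at its middle position and Tox at 0.0685 with 100 kb added on each side. With single profiles left out the differences ranged from -0.20 to 0.52 for Tal1, -0.22 to 0.13 for Pax5, -0.40 to 0.52 for Runx3, -0.32 to 0.26 for Runx1t1, -0.0885 to 0.69 for Bach2, -0.38 to 0.33 for Tox and -0.0023 to 0.49 for Prdm16. The median difference of the 7 genes ranged from -0.22, without deletion replicate 2, to 0.33, without deletion replicate 1, and that of all measured genes was -0.06 and 0.32 under the same omissions. Measured from the deletion mean, the nearest change of sign was 2179 kb from Pax5, 3491 kb from Runx3 and 820 kb from Runx1t1.

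The labels do not say that equal numbers mark pairs. Over genes, the differences between number 1 and number 2 correlated between genotypes (r = 0.33, genes are not independent replicates). With the replicate block, 0 of the 7 genes, 0 of 1301 genes and 0 of their 285 positions were called, against 785 of all 30659 positions (2.56%), and the lowest adjusted p of the 7 was 0.542, for Bach2. Over all 11 alternatives with a value for each gene, the lowest adjusted p was 0.388, for Bach2 without deletion replicate 1. Depth is unknown and limits could not be set from counts.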
